A study of Mus musculus with 16 samples.

Results

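The 7 genes Tnfrsf9, Tnfrsf4, Tnfrsf18, Cd27, Cd28, Icos and Cd40lg encode T cell costimulatory receptors, together with the ligand through which helper T cells stimulate other cells. They were chosen by name from the 24469 gene symbols of the tables, and each of the 7 had 1 row there. Their transcripts were followed in all 16 single-cell libraries of a study of mice lacking *Aire*, the gene through which thymic epithelium displays tissue antigens to developing T cells. C57BL/6 mice of the genotypes *Aire*+/+ and *Aire*-/- carried MC38 tumors, which grow from a mouse colon adenocarcinoma line, and received anti-PD1 or an isotype control antibody. Tumors and spleens were collected on day 19, and CD45+ or CD8+ cells were sorted for droplet sequencing. Mice were pooled and each combination of genotype, treatment, tissue and sort was sequenced as 1 library, so the 4 libraries of a tissue and sort differ in genotype and treatment and are not replicates of a condition. Where 4 values below stand for the 4 libraries of a tissue and sort, they give the wild-type genotype *Aire*+/+ first and *Aire*-/- second. Within each genotype the isotype library comes before the anti-PD1 library.

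A T cell that meets its antigen needs a further signal to divide and survive, and costimulatory receptors deliver it. Cd28 is present on resting T cells and binds Cd80 and Cd86, and Icos is its induced relative and binds Icosl. The TNF receptor family members bind trimeric ligands on antigen-presenting cells and pass the signal through TRAF adaptors to NF-kappaB. Tnfrsf9, Tnfrsf4 and Tnfrsf18 are induced by activation and are antibody targets in tumor immunology, and Cd27 is held by naive and memory cells. Regulatory T cells carry several of these receptors at rest, and Cd40lg is the signal by which activated CD4+ T cells license B cells and dendritic cells.

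The 16 libraries held 37609 barcodes, of which 37453 had at least 200 genes and at most 20% mitochondrial UMIs (unique molecular identifiers, counted molecules) and were kept. The CD45+ tumor libraries held 38930017, 28760714, 24639370 and 23282799 UMIs, and the CD8+ tumor libraries 35163274, 27052444, 22414023 and 23271160. The CD45+ spleen libraries held 12131827, 10927391, 11179227 and 12618095 UMIs, and the CD8+ spleen libraries 20126140, 19167788, 15590029 and 16279427. Tumor cells held more UMIs than spleen cells in each sort, with library medians of 8883 to 12252 UMIs per cell in tumor and 4414 to 6405 in spleen. Shares of cells are therefore given after thinning every cell to 2000 UMIs, which left out 0 to 85 cells with fewer UMIs per spleen library and none of the tumor. A total of 868 barcodes occurred in more than 1 library, on 1750 cells or 4.65% of all cells, and a pair of libraries shared 2 to 18 of them.

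Aire itself, the targeted gene, was close to 0 in every library. The CD45+ tumor libraries held 0, 2, 1 and 0 Aire UMIs, the CD8+ tumor libraries 6, 3, 1 and 0, the CD45+ spleen libraries 2, 5, 4 and 0, and the CD8+ spleen libraries 0, 0, 0 and 0. With so few molecules in either genotype, and with tags from 1 end of the transcript that may lie outside the deleted part of the gene, these counts do not check the genotype.

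Cells were assigned to 4 gates by their own UMIs. CD8 T cells held Cd3 and Cd8b1 transcripts and no Cd4 or Foxp3, and CD4 Foxp3-negative T cells held Cd3 and Cd4 and no Cd8 or Foxp3. Foxp3+ T cells held Cd3 and Foxp3 and no Cd8b1, and NK cells held Ncr1 or Klrb1c with little or no Cd3. Cells with over 0.1% of their UMIs in a list of B cell genes or in a list of myeloid genes were left out of all 4. The CD45+ tumor libraries gave 112, 188, 193 and 667 CD8 T cells, 17, 35, 26 and 29 CD4 Foxp3-negative T cells, 122, 79, 34 and 71 Foxp3+ T cells, and 104, 134, 156 and 267 NK cells. In the CD45+ spleen libraries the same gates held 588, 409, 172 and 248 cells over the 4 libraries. The CD8+ sort added 8243 CD8 T cells from tumors and 10240 from spleens. The CD4 Foxp3-negative gate of the tumor was small, with 88748 to 222038 UMIs per library.

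The gates were checked by marker genes. The Cd3 list (Cd3d, Cd3e, Cd3g) summed to between 2633 and 4488 CPM (UMIs of a gene per 1e+06 UMIs of a gate) in the 3 tumor T cell gates and to between 7.94 and 18.4 CPM in tumor NK cells. The NK list (Ncr1, Klrb1c, Eomes, Klre1) summed to between 1183 and 1336 CPM in tumor NK cells and to between 104 and 159 CPM in tumor CD8 T cells. In splenic NK cells it summed to between 3984 and 4633 CPM, so the NK gates of the tissues differ in these transcripts. The regulatory T list (Foxp3, Il2ra, Ikzf2, Ctla4) summed to 3378, 4057, 3510 and 4827 CPM in tumor Foxp3+ T cells and to 1665, 1706, 1908 and 1564 CPM in splenic ones. It also reached 2242, 1906, 1139 and 1178 CPM in the Foxp3-negative CD4 gate of the tumor, where Foxp3 was 0 by construction and Ctla4 was the most abundant gene of the list with a mean of 1060 CPM. In the same gate of the spleen the whole list summed to 97.2 to 199 CPM, with Ikzf2 its most abundant gene. A regulatory T cell whose Foxp3 transcript was not captured falls into that gate.

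Traces of other cells differed between the tissues. The myeloid list (7 genes) summed to 23.1, 36.3, 27.6 and 32.2 CPM in tumor CD8 T cells of the CD45+ sort and to 7.16, 3.33, 1.04 and 7.11 CPM in splenic ones, with Lyz2 its most abundant gene in both. In Foxp3+ T cells it summed to 79.1, 61.2, 46.9 and 67.0 CPM in tumor and to 5.84, 0, 4.03 and 3.83 CPM in spleen. The B list (Cd79a, Cd79b, Ms4a1) went the other way, with 4.13, 3.07, 4.45 and 5.34 CPM in tumor CD8 T cells, where Ms4a1 was 0, and 22.7, 36.6, 41.7 and 36.4 CPM in splenic ones. The tumor and stromal list (Krt8, Krt18, Epcam, Col1a1) stayed at or below 24.8 CPM in the tumor gates of the CD45+ sort, with Krt8 at 0 in all 4, and Siglech, a marker of plasmacytoid dendritic cells, reached 107 CPM in 1 splenic NK sum. Hemoglobin transcripts stood at 204 CPM in splenic CD8 T cells of the *Aire*+/+ isotype CD8+ library and at 0.780, 1.68 and 2.17 CPM in the others. The part of these traces in the member results was not tested.

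The transcription factors Lef1 and Tcf7, which naive and memory T cells hold and effector cells lose, also differed between the tissues. Lef1 in CD8 T cells of the CD8+ sort stood at 21.1, 15.0, 20.8 and 21.2 CPM in tumor and at 444, 502, 467 and 488 CPM in spleen, and Tcf7 at 22.9, 14.7, 21.6 and 20.4 CPM in tumor and at 323, 321, 296 and 323 CPM in spleen. In CD4 Foxp3-negative T cells Lef1 stood at 158, 78.3, 54.0 and 41.5 CPM in tumor and at 353, 495, 428 and 388 CPM in spleen, and in Foxp3+ T cells at 22.0, 17.1, 33.1 and 21.2 CPM and at 81.8, 126, 109 and 123 CPM. Each T cell gate thus compares cells of different states between the tissues, and for CD8 T cells the member differences were also taken against splenic cells with Ccl5.

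In every gate, tumor cells carried more of most induced costimulatory receptors than the cells of the same gate in the spleen, and less Cd27 in the T cell gates. The fall of Cd27 in the CD4 Foxp3-negative and Foxp3+ gates lost its call when single conditions were left out. The fits compared UMI sums per gate over 4 tumor and 4 spleen libraries with edgeR, with condition as a block, so the error is the spread of the tissue difference over 4 conditions that differ in genotype and treatment. In CD8 T cells of the CD8+ sort all 7 members were tested and called, 6 higher and 1 lower in tumor, among 77.7% of 11299 genes called in either direction and 37.8% called higher. In CD8 T cells of the CD45+ sort 6 members passed the filter on low counts, 5 were higher and 1 lower, among 57.0% of 7593 genes called and 28.7% called higher. The 5 include Tnfrsf4, which passed the filter through its tumor counts alone, so its call does not test the direction. It also enters the median of that fit given below. In CD4 Foxp3-negative T cells 5 of 7 were higher, 1 lower and 1 not called, among 24.4% of 4038 genes called and 13.2% called higher. In Foxp3+ T cells 5 of 6 were higher and 1 lower, among 34.1% of 4281 genes called and 18.7% called higher. In NK cells 4 of 5 were higher and 1 was not called, among 41.3% of 7287 genes called and 22.2% called higher. Cd40lg failed the filter in CD45+ sorted CD8 T cells, Foxp3+ T cells and NK cells, and Tnfrsf4 failed it in NK cells. The median log2 fold change over the tested members was 2.97, 3.18, 2.57, 1.91 and 1.21 in that order of gates, beside medians over all tested genes of -0.03, -0.03, -0.06, -0.03 and -0.02. These fits share no cells, but the 4 of the CD45+ sort share libraries. The authors describe suspensions pooled per condition and sorted for CD45+ or CD8+ cells. The tissues and sorts of a condition may thus come from the same mice, and the CD8+ sort is not an independent sample.

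**Figure D1:**
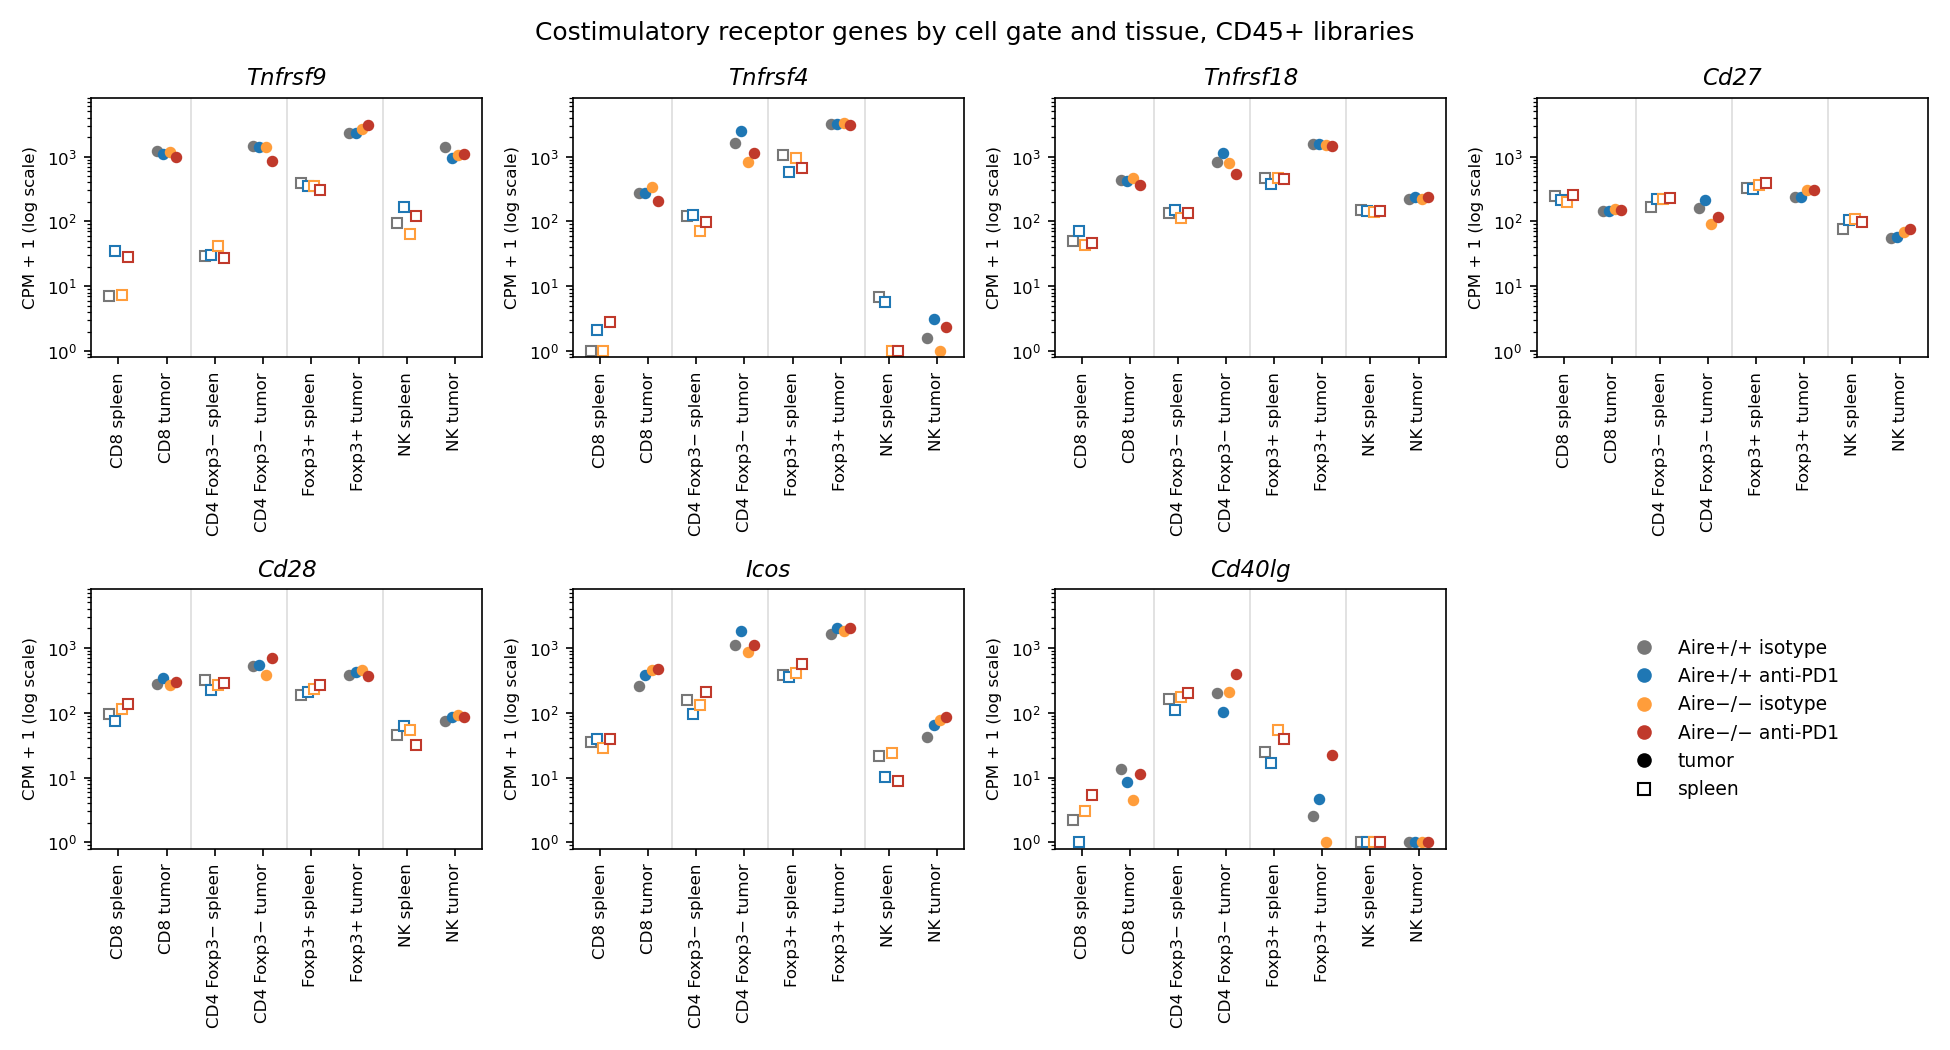
Level of each member in CPM plus 1 on a log axis, in the 4 gates of the CD45+ sort, with 1 point per library and tumor beside spleen. Tnfrsf9 and Tnfrsf4 stood highest in tumor Foxp3+ T cells, with means of 2598 and 3195 CPM, and Cd40lg was confined to the CD4 gates apart from traces.

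Tnfrsf9, an activation-induced receptor that sustains CD8 T cell survival and effector function, was abundant in every lymphocyte gate of the tumor and scarce in the spleen outside Foxp3+ T cells. In tumor it stood at 1238, 1112, 1157 and 997 CPM in CD8 T cells, at 1465, 1386, 1396 and 867 CPM in CD4 Foxp3-negative T cells, at 2308, 2347, 2641 and 3095 CPM in Foxp3+ T cells, and at 1381, 961, 1049 and 1096 CPM in NK cells. In spleen it stood at 5.96, 34.4, 6.26 and 27.6 CPM in CD8 T cells, at 28.2, 29.4, 41.1 and 26.1 CPM in CD4 Foxp3-negative T cells, at 386, 348, 354 and 307 CPM in Foxp3+ T cells, and at 93.3, 168, 61.9 and 121 CPM in NK cells. Every tumor value lay above every spleen value, whatever the gate. The tumor Foxp3+ gate (2598 ± 363 CPM, mean and SD of 4 libraries) did not overlap any other, while the tumor CD4 Foxp3-negative, CD8 and NK gates overlapped, at 1278 ± 277, 1126 ± 101 and 1122 ± 182 CPM. In spleen the order was Foxp3+ T cells (349 ± 32.4), NK cells (111 ± 44.9), CD4 Foxp3-negative T cells (31.2 ± 6.73) and CD8 T cells (18.5 ± 14.6), of which the last pair overlapped.

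The fitted log2 differences of Tnfrsf9 between tumor and spleen followed these levels. It rose in CD8 T cells by 6.18 ± 0.21 (log2 fold change and SE) in the CD8+ sort (adjusted p = 1.92e-07) and by 5.78 ± 0.20 in the CD45+ sort (adjusted p = 1.30e-18). In CD4 Foxp3-negative T cells it rose by 5.27 ± 0.19 (adjusted p = 3.67e-12), in Foxp3+ T cells by 2.92 ± 0.15 (adjusted p = 2.36e-10) and in NK cells by 3.77 ± 0.18 (adjusted p = 3.83e-11), each time in 4 of 4 conditions. With cells thinned to 2000 UMIs the difference was 7.07 in the CD8+ sort, 4.44 in CD4 Foxp3-negative and 3.66 in Foxp3+ T cells, and without the deepest cells it was 6.80 in the CD8+ sort. Without cells holding Il2ra or Ikzf2 UMIs it was 4.39 in CD4 Foxp3-negative T cells.

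The share of cells with a Tnfrsf9 transcript showed the same split. After thinning, 67.4% (65.5 to 69.3, Clopper-Pearson 95% interval), 70.3% (68.3 to 72.3), 68.5% (66.3 to 70.7) and 58.6% (56.5 to 60.8) of tumor CD8 T cells of the CD8+ sort held a Tnfrsf9 UMI, against 1.05 to 1.83% of splenic ones. Before thinning these shares were 75.7 to 86.0% and 3.28 to 4.56%. In tumor 64.9 to 81.7% of NK cells and 90.1 to 94.9% of Foxp3+ T cells held the transcript after thinning, and 26.0 to 33.3% of splenic Foxp3+ T cells did. Tumor myeloid cells, with gate medians of 11007 to 12829 UMIs against 8855 to 10944 in the CD8+ sorted tumor T cells, held it in 3.21 to 4.68%, and splenic B cells in 0 to 0.0600%.

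Tnfrsf4, which prolongs clonal expansion of CD4 T cells and is carried by regulatory T cells, was a CD4 lineage transcript in the spleen and spread to CD8 T cells in the tumor, but not to NK cells. In tumor it stood at 3217, 3220, 3237 and 3105 CPM in Foxp3+ T cells, at 1645, 2444, 838 and 1147 CPM in CD4 Foxp3-negative T cells, and at 270, 277, 335 and 207 CPM in CD8 T cells. In spleen it stood at 1069, 569, 954 and 663 CPM in Foxp3+ T cells and at 120, 124, 71.2 and 97.8 CPM in CD4 Foxp3-negative T cells. The tissues did not overlap in either CD4 lineage gate. Splenic CD8 T cells of the CD45+ sort held 0, 1, 0 and 2 Tnfrsf4 UMIs, and NK cells held 10 UMIs in all 4 tumor libraries and 3 in all 4 spleen libraries. By mean level the order was tumor Foxp3+ (3195 ± 60.5 CPM), tumor CD4 Foxp3-negative (1519 ± 701), splenic Foxp3+ (814 ± 236), tumor CD8 (272 ± 52.6) and splenic CD4 Foxp3-negative (103 ± 24.5), in which the second and the third overlapped.

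The larger CD8+ sort measured the CD8 T cell difference of Tnfrsf4 best. It stood at 327, 348, 304 and 255 CPM in tumor and at 2.58, 1.95, 1.21 and 1.25 CPM in spleen, a rise of 7.35 ± 0.13 on the log2 scale (adjusted p = 2.16e-08), and the ratio within a condition ran from 127-fold to 251-fold. It is taken over 18 to 48 splenic UMIs per library, and is a lower bound if these are background. In the CD45+ sort the sums over 4 libraries were 3054 UMIs in tumor and 3 in spleen, a log2 ratio of 8.30 with a counting interval from 6.75 to 10.58. The fitted 8.22 ± 0.25 there depends on the prior count that the fit adds to counts this low. The gene passed the filter through its tumor counts alone, so its call there does not test the direction. The fitted value was 9.23 without the *Aire*-/- anti-PD1 libraries and 7.23 with thinned cells. Tnfrsf4 rose by 3.76 ± 0.17 in CD4 Foxp3-negative T cells (adjusted p = 2.65e-11), or 3.10 with thinned cells, and by 2.03 ± 0.15 in Foxp3+ T cells (adjusted p = 1.07e-08), in 4 of 4 conditions.

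After thinning, Tnfrsf4 was seen in 31.6% (29.7 to 33.5), 33.1% (31.1 to 35.2), 27.5% (25.4 to 29.7) and 22.4% (20.6 to 24.3) of tumor CD8 T cells of the CD8+ sort. In splenic ones it was seen in 0.146 to 0.325%, close to the range of splenic B cells (0.147 to 0.308%), and the splenic signal cannot be told apart from background. Tumor NK cells held it in 0 to 0.375%, below tumor myeloid cells at 0.836 to 1.81%, and cannot be told apart from background either. In Foxp3+ T cells 94.1 to 97.5% held it in tumor and 55.6 to 68.0% in spleen.

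Tnfrsf18, known as GITR and constitutive on regulatory T cells, was present in all 4 gates of both tissues and higher in the tumor in each. In tumor it stood at 436, 421, 460 and 369 CPM in CD8 T cells, at 811, 1146, 806 and 545 CPM in CD4 Foxp3-negative T cells, at 1552, 1554, 1483 and 1433 CPM in Foxp3+ T cells and at 220, 239, 223 and 235 CPM in NK cells. In spleen it stood at 48.9, 69.9, 41.7 and 45.3 CPM, at 136, 152, 112 and 132 CPM, at 473, 374, 459 and 456 CPM and at 152, 144, 140 and 144 CPM in the same order of gates. No tumor value overlapped the spleen values of its gate. Tumor Foxp3+ T cells (1506 ± 58.5 CPM) and tumor CD4 Foxp3-negative T cells (827 ± 246) led, and splenic Foxp3+ (441 ± 45.1) and tumor CD8 T cells (422 ± 38.5) overlapped. Tumor NK cells (229 ± 9.10) followed, and splenic NK cells (145 ± 4.82) overlapped splenic CD4 Foxp3-negative T cells (133 ± 16.2) above splenic CD8 T cells (51.5 ± 12.6). Tnfrsf18 rose by 2.97 ± 0.09 in CD8 T cells of the CD8+ sort (adjusted p = 1.23e-07), and by 2.94 ± 0.12 in those of the CD45+ sort (adjusted p = 2.54e-17). It rose by 2.57 ± 0.18 in CD4 Foxp3-negative T cells (adjusted p = 5.60e-09), by 1.79 ± 0.12 in Foxp3+ T cells (adjusted p = 6.12e-09) and by 1.02 ± 0.13 in NK cells (adjusted p = 5.14e-06). The share of CD8 T cells of the CD8+ sort with the transcript was 46.0 to 53.1% in tumor and 9.71 to 10.7% in spleen after thinning, and 83.0 to 89.1% and 25.2 to 30.2% before. Splenic B cells held it in 4.03 to 4.65% after thinning and 10.2 to 12.2% before, at gate medians of 4161 to 4461 UMIs against 5810 to 6382 in the CD8 T cells.

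Cd27, which supports the survival of naive and memory T cells and is lost late in differentiation, was the member that fell in the tumor. In CD8 T cells of the CD8+ sort it stood at 153, 150, 153 and 142 CPM in tumor and at 228, 220, 213 and 234 CPM in spleen, with no overlap and little spread within a tissue. In the CD45+ sort it stood at 143, 146, 157 and 147 CPM in tumor CD8 T cells and at 245, 210, 198 and 258 CPM in splenic ones. Cd27 fell by 0.67 ± 0.05 on the log2 scale in the CD8+ sort (adjusted p = 1.51e-05) and by 0.72 ± 0.09 in the CD45+ sort (adjusted p = 2.62e-07). In CD4 Foxp3-negative T cells the tumor values of 158, 216, 90.1 and 114 CPM overlapped the spleen values of 164, 224, 219 and 228 CPM. The fall by 0.65 ± 0.22 (adjusted p = 0.039) was no longer called without the *Aire*-/- isotype libraries, where it was -0.44, without the *Aire*-/- anti-PD1 libraries, where it was -0.51, or with thinned cells, where it was -0.39. Without cells holding Il2ra or Ikzf2 UMIs it was -1.35 and called. In Foxp3+ T cells the values were 238, 240, 303 and 301 CPM in tumor and 327, 316, 366 and 395 CPM in spleen. The fall by 0.36 ± 0.13 (adjusted p = 0.041) was not called when any of the 4 conditions was left out, with values from -0.37 to -0.32. In NK cells, with 53.7, 57.2, 66.5 and 74.3 CPM in tumor and 75.8, 103, 107 and 97.5 CPM in spleen, the fitted value was -0.23 ± 0.17 and was not called (adjusted p = 0.293), and it was 0.11 with thinned cells.

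By level, Cd27 was ordered as splenic Foxp3+ (351 ± 36.3 CPM), tumor Foxp3+ (270 ± 36.4), splenic CD8 (228 ± 28.2) and splenic CD4 Foxp3-negative T cells (209 ± 30.1), tumor CD8 (148 ± 6.18) and CD4 Foxp3-negative T cells (145 ± 55.4), splenic NK cells (95.8 ± 13.9) and tumor NK cells (62.9 ± 9.29). Tumor Foxp3+, splenic CD8 and splenic CD4 Foxp3-negative T cells overlapped their neighbours in this order, as did tumor CD8, tumor CD4 Foxp3-negative and splenic NK cells. The transcript was seen in 22.4 to 27.2% of tumor and 35.0 to 37.5% of splenic CD8 T cells of the CD8+ sort after thinning, and in 57.5 to 70.4% and 70.2 to 74.2% before, so the ranges met only when the tumor cells kept all their UMIs. In tumor myeloid cells its mean level was 0.247 CPM and in splenic B cells 0.897 CPM.

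Cd28, the receptor that lowers the threshold for activation of resting T cells, was more abundant in the tumor in all 4 gates, by less than its relative Icos. In CD8 T cells of the CD8+ sort it stood at 261, 328, 261 and 280 CPM in tumor and at 91.9, 90.1, 101 and 105 CPM in spleen. In the CD45+ sort it stood at 280, 342, 271 and 298 CPM in tumor and at 93.0, 73.2, 114 and 136 CPM in splenic CD8 T cells, without overlap. CD4 Foxp3-negative T cells had 518, 548, 374 and 685 CPM in tumor and 320, 224, 267 and 284 CPM in spleen, Foxp3+ T cells 385, 426, 458 and 361 CPM and 187, 205, 233 and 268 CPM, and NK cells 73.3, 84.7, 90.7 and 84.7 CPM and 43.8, 60.6, 52.1 and 31.2 CPM. All tumor values again exceeded the spleen values of their gate. Cd28 rose by 1.45 ± 0.07 in CD8 T cells of the CD8+ sort (adjusted p = 1.46e-06), and by 1.40 ± 0.12 in those of the CD45+ sort (adjusted p = 2.33e-10). It rose by 0.91 ± 0.17 in CD4 Foxp3-negative T cells (adjusted p = 4.67e-04), by 0.88 ± 0.14 in Foxp3+ T cells (adjusted p = 1.26e-04) and by 1.21 ± 0.20 in NK cells (adjusted p = 1.04e-04). In Foxp3+ T cells it was 0.47 and not called with thinned cells.

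The order of the Cd28 levels was tumor CD4 Foxp3-negative (531 ± 128 CPM) and Foxp3+ T cells (408 ± 42.8), which overlapped. Then came tumor CD8 (298 ± 31.7), splenic CD4 Foxp3-negative (274 ± 39.9) and splenic Foxp3+ T cells (224 ± 35.5), which overlapped in turn, then splenic CD8 T cells (104 ± 27.0) and tumor NK cells (83.4 ± 7.30), which overlapped, and splenic NK cells (46.9 ± 12.5). After thinning 40.8 to 49.1% of tumor and 16.1 to 18.0% of splenic CD8 T cells of the CD8+ sort held a Cd28 UMI, against 82.3 to 91.4% and 37.8 to 42.3% before. Its mean level was 0.740 CPM in tumor myeloid cells and 2.39 CPM in splenic B cells.

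Icos, which is induced on activated T cells and sustains helper and regulatory T cells, rose in every gate. In CD8 T cells of the CD8+ sort it stood at 353, 478, 481 and 474 CPM in tumor and at 28.3, 26.9, 34.8 and 38.9 CPM in spleen. In the CD45+ sort it stood at 261, 385, 457 and 472 CPM in tumor CD8 T cells, at 1116, 1837, 865 and 1111 CPM in CD4 Foxp3-negative T cells, at 1644, 2025, 1798 and 2020 CPM in Foxp3+ T cells and at 41.5, 63.1, 77.3 and 83.9 CPM in NK cells. The spleen values were 34.6, 37.7, 27.1 and 38.2 CPM, 154, 92.8, 129 and 205 CPM, 386, 358, 411 and 556 CPM, and 20.4, 9.32, 22.8 and 7.80 CPM in the same order of gates. Tumor and spleen did not overlap in any gate, and splenic Foxp3+ T cells (428 ± 88.2 CPM) overlapped tumor CD8 T cells (394 ± 96.4). Tumor Foxp3+ T cells (1872 ± 185) overlapped tumor CD4 Foxp3-negative T cells (1232 ± 420) at the top, and splenic CD4 Foxp3-negative T cells (145 ± 47.3), tumor NK cells (66.5 ± 18.8), splenic CD8 T cells (34.4 ± 5.11) and splenic NK cells (15.1 ± 7.62) followed without overlap.

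Icos rose by 3.71 ± 0.09 in CD8 T cells of the CD8+ sort (adjusted p = 5.10e-08) and by 3.42 ± 0.13 in those of the CD45+ sort (adjusted p = 8.98e-18). It rose by 3.01 ± 0.23 in CD4 Foxp3-negative T cells (adjusted p = 1.28e-08), by 2.16 ± 0.13 in Foxp3+ T cells (adjusted p = 1.43e-09) and by 2.39 ± 0.30 in NK cells (adjusted p = 5.85e-06), the last from 640 UMIs in tumor and 18 in spleen. After thinning 44.3% (42.3 to 46.3), 53.1% (50.9 to 55.3), 54.2% (51.8 to 56.5) and 54.6% (52.5 to 56.8) of tumor CD8 T cells of the CD8+ sort held the transcript, against 4.94 to 7.55% of splenic ones. Before thinning the shares were 83.8 to 89.5% and 14.4 to 18.5%. Its mean level was 0.751 CPM in tumor myeloid cells and 0.0672 CPM in splenic B cells.

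Cd40lg, the ligand of Cd40, marked the CD4 Foxp3-negative gate in both tissues. It stood there at 203, 101, 207 and 389 CPM in tumor and at 159, 109, 175 and 199 CPM in spleen, and the tissues overlapped. The fitted value of 0.40 ± 0.20 was not called (adjusted p = 0.17), and it turned to -0.44, again not called, with thinned cells, and was 0.98 and called without cells holding Il2ra or Ikzf2 UMIs. In Foxp3+ T cells it stood at 1.52, 3.67, 0 and 21.2 CPM in tumor and at 23.4, 15.8, 52.3 and 38.3 CPM in spleen, which is 18 and 30 UMIs over 4 libraries and was not tested. The *Aire*-/- anti-PD1 tumor library held 13 of the 18, and the log2 ratio with its counting interval was -0.85 (-2.16 to 0.50) in that condition and -3.94 (-7.41 to -1.14) in *Aire*+/+ isotype. NK cells held no Cd40lg UMI in either tissue. Among 661 tumor and 248 splenic NK cells a count of 0 limits only the share of cells with a captured molecule.

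CD8 T cells held a trace of Cd40lg. In the CD8+ sort it stood at 9.91, 12.4, 9.80 and 12.1 CPM in tumor and at 5.05, 2.45, 3.49 and 2.76 CPM in spleen, without overlap, and it rose by 1.60 ± 0.22 (adjusted p = 2.58e-04). The thinned share was 2.21 to 2.78% in tumor and 0.472 to 0.803% in spleen, and tumor myeloid cells held no Cd40lg UMI. Against splenic CD8 T cells with at least 2 Ccl5 UMIs alone, the difference was 0.68 and was still called. By level, tumor (225 ± 120 CPM) and splenic CD4 Foxp3-negative T cells (160 ± 38.2) overlapped, splenic Foxp3+ T cells (32.5 ± 16.2) came next, and tumor CD8 T cells (8.54 ± 3.84), tumor Foxp3+ T cells (6.61 ± 9.87) and splenic CD8 T cells (1.93 ± 1.88) overlapped their neighbours.

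**Figure D2:**
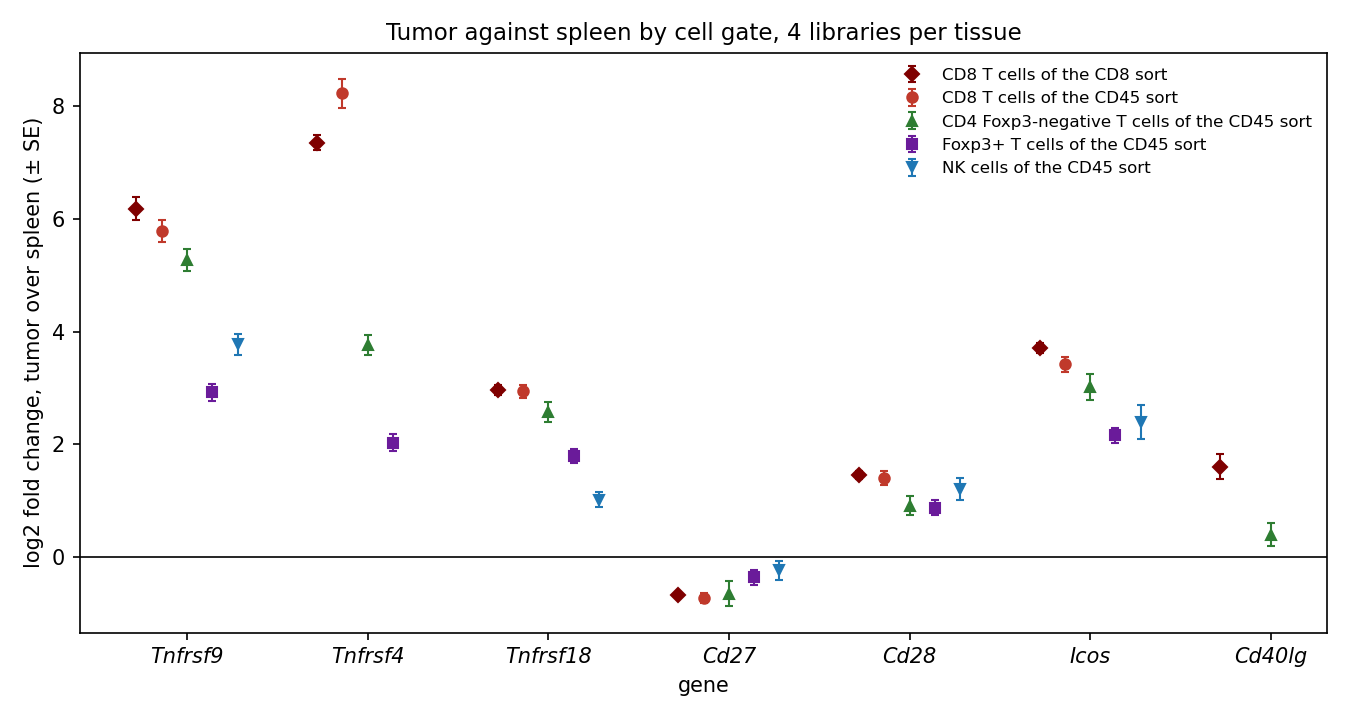
Fitted log2 fold change of each tested member between tumor and spleen with its SE as error bar, for CD8 T cells of both sorts and the 3 other gates of the CD45+ sort. Cd27 lies below 0 in all 5 fits, and Tnfrsf9 lies between 2.92 and 6.18.

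Within the tumor, Foxp3+ T cells carried more of most members than CD8 T cells of the same libraries. Of 6 tested members 5 were higher and 1 was not called, among 27.0% of 7903 genes called. Tnfrsf4 was higher by 3.41 ± 0.11 (adjusted p = 1.02e-10), Icos by 2.11 ± 0.10 (adjusted p = 6.29e-09), Tnfrsf18 by 1.67 ± 0.08 (adjusted p = 7.22e-09), Tnfrsf9 by 1.03 ± 0.11 (adjusted p = 8.64e-06) and Cd27 by 0.69 ± 0.11 (adjusted p = 2.31e-04). Cd28 was at 0.28 ± 0.10 and was not called (adjusted p = 0.057). Of 8 other costimulatory receptors tested 3 were higher, 3 lower and 2 not called. Tnfrsf8 was higher by 5.15 ± 0.33, Cd2 by 1.58 ± 0.08 and Tnfrsf1b by 1.16 ± 0.12 in Foxp3+ T cells, and Crtam, Klrk1 and Cd226, receptors of cytotoxic cells, were lower at -6.41 ± 0.52, -5.32 ± 0.43 and -3.79 ± 0.32. Crtam, Klrk1 and Cd226 had means of 0.190, 17.7 and 6.44 CPM in tumor Foxp3+ T cells, each with a lowest library at 0. Tnfrsf8 had a mean of 0.915 CPM in tumor CD8 T cells. The fitted values of these genes therefore depend on the prior count.

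Against CD4 Foxp3-negative T cells of the tumor, 4 of 7 members were higher in Foxp3+ T cells, 1 was lower and 2 were not called, among 8.85% of 3874 genes called. Tnfrsf4 was higher by 1.05 ± 0.19 (adjusted p = 0.0056), Tnfrsf9 by 0.91 ± 0.18 (adjusted p = 0.0078), Tnfrsf18 by 0.78 ± 0.15 (adjusted p = 0.0093) and Icos by 0.53 ± 0.15 (adjusted p = 0.046). Cd40lg was lower at -5.26 ± 0.43 (adjusted p = 4.93e-05), and -6.32 without the *Aire*-/- anti-PD1 library. It had a mean of 6.61 CPM in tumor Foxp3+ T cells, with a lowest library at 0, so the fitted value depends on the prior count. Cd27 (0.82 ± 0.25, adjusted p = 0.07) and Cd28 (-0.49 ± 0.19, adjusted p = 0.138) were not called, but Cd27 was called without the *Aire*+/+ anti-PD1 library (1.15) and Cd28 without the *Aire*-/- isotype library (-0.67). Icos was no longer called without the *Aire*+/+ isotype library (0.56), without the *Aire*-/- isotype library (0.42) or without the *Aire*-/- anti-PD1 library (0.44), and Tnfrsf18 was no longer called without the last of these (0.60). When cells with an Il2ra or Ikzf2 UMI were taken out of the CD4 Foxp3-negative gate, leaving 10, 18, 14 and 14 cells, the differences were 2.48 for Tnfrsf9, 2.18 for Tnfrsf4, 1.45 for Tnfrsf18, 1.21 for Icos and 1.55 for Cd27, all called. With thinned cells Tnfrsf4 and Tnfrsf9 were called, both at 0.90, Tnfrsf18 (0.74) and Icos (0.48) were not, and Cd40lg was not tested. Without the exclusion of cells with B or myeloid UMIs, Cd40lg alone was called.

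CD4 Foxp3-negative T cells of the tumor in turn held more Tnfrsf4, Icos, Tnfrsf18, Cd28 and Cd40lg than CD8 T cells, so that 5 of 7 members were higher and 2 were not called, among 10.1% of 6182 genes called. Tnfrsf4 was higher by 2.33 ± 0.22 (adjusted p = 2.38e-05), Icos by 1.55 ± 0.19 (adjusted p = 1.84e-04), Tnfrsf18 by 0.87 ± 0.15 (adjusted p = 0.0024), Cd28 by 0.75 ± 0.15 (adjusted p = 0.0068) and Cd40lg by 4.75 ± 0.31 (adjusted p = 6.41e-07). Tnfrsf9 at 0.10 ± 0.12 (adjusted p = 0.706) and Cd27 at -0.15 ± 0.21 (adjusted p = 0.737) were not called. Without cells holding Il2ra or Ikzf2 UMIs, Tnfrsf9 was at -1.50 and Cd27 at -0.92, both called, Tnfrsf4 at 1.15, Icos at 0.83 and Tnfrsf18 at 0.17, the last no longer called. With thinned cells Tnfrsf9 was called at 0.74 and Tnfrsf4 was at 3.08, and Cd27 turned to 0.06, not called, without the *Aire*-/- isotype library. Cd28 was no longer called without the *Aire*+/+ anti-PD1 library (0.80) or without the *Aire*-/- anti-PD1 library (0.59).

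Tumor NK cells matched tumor CD8 T cells in Tnfrsf9 and were lower in the others. Of 6 tested members 5 were lower and 1 was not called, among 31.4% of 8612 genes called. Tnfrsf9 differed by 0.01 ± 0.08 (adjusted p = 0.931), or by -0.03 without the *Aire*+/+ isotype library and -0.05 without the *Aire*-/- anti-PD1 library, while Tnfrsf18 was at -0.84 ± 0.08 (adjusted p = 3.09e-06), Cd27 at -1.19 ± 0.10 (adjusted p = 7.07e-07), Cd28 at -1.80 ± 0.09 (adjusted p = 4.19e-09) and Icos at -2.54 ± 0.08 (adjusted p = 4.20e-11). Tnfrsf4, with 10 UMIs in all tumor NK cells, was at -7.79 ± 0.22, a value that depends on the prior count. The gene passed the filter through the CD8 T cells alone. It is counted among the 5 lower, but its call does not test the direction.

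In the spleen Foxp3+ T cells again carried more of most members than the other T cells. Between Foxp3+ and CD8 T cells 5 of 6 tested members were higher and 1 was not called, among 21.8% of 5613 genes called. Tnfrsf9 was at 3.82 ± 0.21 (adjusted p = 7.61e-22), Tnfrsf18 at 2.74 ± 0.14 (adjusted p = 3.10e-23), Icos at 3.28 ± 0.15 (adjusted p = 4.06e-26) and Cd28 at 0.73 ± 0.14 (adjusted p = 4.17e-05). Tnfrsf4 was at 9.30 ± 0.24, from 701 UMIs against 3. It passed the filter through the Foxp3+ T cells alone, so its call, counted among the 5 higher, does not test the direction. The fitted value depends on the prior count and was 10.15 without the *Aire*-/- anti-PD1 library and 8.68 with thinned cells. Cd27 was at 0.27 ± 0.12 and was not called (adjusted p = 0.094), though it was called at 0.55 with thinned cells. Between splenic Foxp3+ and CD4 Foxp3-negative T cells 5 of 7 were higher and 2 lower, among 12.8% of 4357 genes called. Tnfrsf9 was at 3.27 ± 0.17 (adjusted p = 3.03e-15), Tnfrsf4 at 2.84 ± 0.16 (adjusted p = 9.47e-15), Icos at 1.42 ± 0.13 (adjusted p = 8.95e-10) and Cd40lg at -2.40 ± 0.22 (adjusted p = 1.20e-09). Tnfrsf9 was at 1.68 with thinned cells, and without cells holding Il2ra or Ikzf2 UMIs it was at 3.96 and Tnfrsf4 at 3.71. Cd28 was lower at -0.42 ± 0.13 (adjusted p = 0.034), no longer called without the *Aire*+/+ isotype (-0.31), *Aire*+/+ anti-PD1 (-0.45) or *Aire*-/- isotype library (-0.45), and -0.03 with thinned cells.

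Splenic CD4 Foxp3-negative T cells were higher than CD8 T cells in 5 of 7 members, lower in 1 and not called in 1, among 13.5% of 6624 genes called. Cd40lg was higher by 5.95 ± 0.26 (adjusted p = 9.24e-15) and Icos by 1.86 ± 0.16 (adjusted p = 2.72e-09), and Tnfrsf9 at 0.58 ± 0.34 was not called (adjusted p = 0.33), nor at -0.09 without cells holding Il2ra or Ikzf2 UMIs. Tnfrsf4 was higher by 6.54 ± 0.35 (adjusted p = 6.54e-13), and without the *Aire*-/- anti-PD1 library it was at 7.38 and Cd40lg at 6.62. Splenic CD8 T cells held means of only 0.722 CPM of Tnfrsf4 and 1.93 CPM of Cd40lg, so the fitted values of both depend on the prior count. Both are counted among the 5 higher, but with levels this low in CD8 T cells their calls do not test the direction. Cd27 was lower at -0.33 ± 0.11 (adjusted p = 0.049), and not called without the *Aire*+/+ isotype (-0.20), *Aire*-/- isotype (-0.43) or *Aire*-/- anti-PD1 library (-0.31). Splenic NK cells had more Tnfrsf9 (2.14 ± 0.24, adjusted p = 2.82e-09) and Tnfrsf18 (1.06 ± 0.16, adjusted p = 2.18e-06) than splenic CD8 T cells and less Cd27, Cd28 and Icos, which made 2 of 5 tested members higher and 3 lower, among 36.9% of 6032 genes called.

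Whether the tissue difference itself differed between gates was tested as an interaction within the 8 CD45+ libraries. Tnfrsf9, Tnfrsf18 and Icos changed less on the log2 scale between spleen and tumor in Foxp3+ than in CD8 T cells, at -2.80 ± 0.33 (adjusted p = 4.51e-06), -1.06 ± 0.17 (adjusted p = 2.39e-04) and -1.15 ± 0.18 (adjusted p = 1.69e-04). With Tnfrsf4 at -6.05 ± 0.39 (adjusted p = 1.10e-09) and Cd40lg at -4.22 ± 0.87 (adjusted p = 0.0028), both near 0 in splenic CD8 T cells and so dependent on the prior count, 5 of 7 members were called lower and 2 were not called, among 8.25% of 7992 genes called. Without the *Aire*-/- anti-PD1 libraries Tnfrsf4 was at -7.10 and Cd40lg at -6.57, and without the *Aire*+/+ isotype libraries Cd40lg was at -3.50. DESeq2 gave -4.94 for Cd40lg. For CD4 Foxp3-negative against CD8 T cells only Tnfrsf4 was called of 7, at -4.34 ± 0.70 (adjusted p = 5.13e-04) and at -5.21 without the *Aire*-/- anti-PD1 libraries, among 5.36% of 7568 genes called. Its size depends on the prior count for the same reason. For NK against CD8 T cells 3 of 6 were called lower, among 24.9% of 8607 genes called. They were Tnfrsf9 at -2.17 ± 0.25 (adjusted p = 7.64e-07), Tnfrsf18 at -1.93 ± 0.18 (adjusted p = 3.77e-08) and Tnfrsf4 at -9.08 ± 1.87. That last value rests on 13 UMIs in NK cells and depends on the prior count. The gene passed the filter through tumor CD8 T cells alone, so its call does not test the direction. The Tnfrsf4 value was -10.72 without the *Aire*-/- anti-PD1 libraries, and -7.71 and no longer called without the *Aire*+/+ isotype libraries. Cd27 (0.51 ± 0.19, adjusted p = 0.051) was called without the *Aire*-/- isotype libraries (0.67), Icos (adjusted p = 0.057) was called without the *Aire*-/- anti-PD1 libraries (-1.31), and Cd28, at -0.20, turned to 0.09 without the *Aire*+/+ anti-PD1 libraries.

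The tissue difference was also set beside a split of the spleen by Ccl5, a chemokine that antigen-experienced CD8 T cells hold and naive ones lack. In the CD8+ sort 457, 412, 496 and 504 splenic CD8 T cells held at least 2 Ccl5 UMIs and 2157, 2244, 1649 and 1853 held none. The cells with Ccl5 carried more Icos (0.52 ± 0.09, adjusted p = 3.61e-04), Cd28 (0.45 ± 0.07, adjusted p = 2.86e-04) and Cd40lg (1.41 ± 0.36, adjusted p = 0.0083), and 3 of 7 members were called, among 29.7% of 9944 genes called. Tnfrsf9 (-0.31, adjusted p = 0.188), Tnfrsf4 (0.87, adjusted p = 0.208), Tnfrsf18 (0.03, adjusted p = 0.809) and Cd27 (-0.07, adjusted p = 0.29) were not called. Tnfrsf9 was called without the *Aire*+/+ anti-PD1 library (-0.54), and Tnfrsf4 and Tnfrsf18 turned to -0.27 and -0.04, not called, without the *Aire*+/+ isotype library. Against the splenic cells with Ccl5 alone, tumor CD8 T cells still differed by 6.44 in Tnfrsf9, 6.62 in Tnfrsf4, 2.95 in Tnfrsf18, 3.35 in Icos, 1.11 in Cd28 and -0.62 in Cd27, all called, among 62.7% of 10829 genes called and 30.8% called higher in that fit.

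With all UMIs kept, no member of tumor CD8 T cells moved by 1.5-fold between genotypes and treatments in the CD8+ sort. Tnfrsf4 and Icos moved most there. With thinned cells Cd40lg moved most, at a log2 ratio of 0.81 for anti-PD1 over isotype in *Aire*-/-. In the CD45+ sort Cd40lg also moved most, at -1.80 for *Aire*-/- over *Aire*+/+ under isotype, from 8 and 15 UMIs. With 1 library per condition no test was run, and the intervals below cover counting error only. In the CD8+ sort 0 of 7 members passed 1.5-fold in any of the 4 contrasts, beside 8.72% of 12098 genes past it for anti-PD1 over isotype in *Aire*+/+, 8.85% of 11931 for the same contrast in *Aire*-/-, 11.3% of 12060 for *Aire*-/- over *Aire*+/+ under isotype and 10.4% of 11990 under anti-PD1. Icos was lowest in the *Aire*+/+ isotype library, at 353 CPM against 474 to 481 in the others, a log2 ratio of 0.44 (0.40 to 0.47) for anti-PD1 over isotype in *Aire*+/+ and of 0.44 (0.40 to 0.48) for *Aire*-/- over *Aire*+/+ under isotype. The CD8 T cells of the CD45+ sort gave 0.56 (0.37 to 0.76) and 0.81 (lower bound 0.63) for these ratios. In that sort 5 pairs of member and contrast passed 1.5-fold, 3 of them for Cd40lg from 8 to 73 UMIs per library, beside 14.7 to 22.1% of all genes. With thinned cells of the CD8+ sort 2 pairs did, beside 12.5 to 14.2% of all genes.

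Tnfrsf9, Tnfrsf4 and Tnfrsf18 were lowest in the *Aire*-/- anti-PD1 library of the CD8+ sort. Over the *Aire*-/- isotype library the log2 ratio was -0.25 (-0.28 to -0.23) for Tnfrsf9, -0.25 (-0.30 to -0.20) for Tnfrsf4 and -0.26 (-0.30 to -0.22) for Tnfrsf18, and in the CD45+ sort it was -0.21 (-0.28 to -0.15), -0.70 (-0.83 to -0.57) and -0.32 (-0.42 to -0.21). With thinned cells of the CD8+ sort it was -0.46 (-0.53 to -0.40), -0.38 (-0.52 to -0.24) and -0.33 (-0.43 to -0.23) in the same order. For *Aire*-/- over *Aire*+/+ under anti-PD1, Tnfrsf4 was at -0.45 (-0.49 to -0.40), or -0.70 (-0.83 to -0.57) with thinned cells, and at -0.42 (-0.57 to -0.28) in the CD45+ sort. Cd28 was highest in the *Aire*+/+ anti-PD1 library, at 0.33 (0.28 to 0.37) over isotype in the CD8+ sort and 0.29 (0.10 to 0.48) in the CD45+ sort. The largest ratio of Cd27 in the CD8+ sort was -0.11 (-0.18 to -0.04). Of 28 pairs of member and contrast, 18 had the same sign in both sorts, 12 had intervals off 0 in the same direction and 3 in opposite directions. The contrasts share libraries, and both sorts of a condition may come from the same pooled mice.

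**Figure D3:**
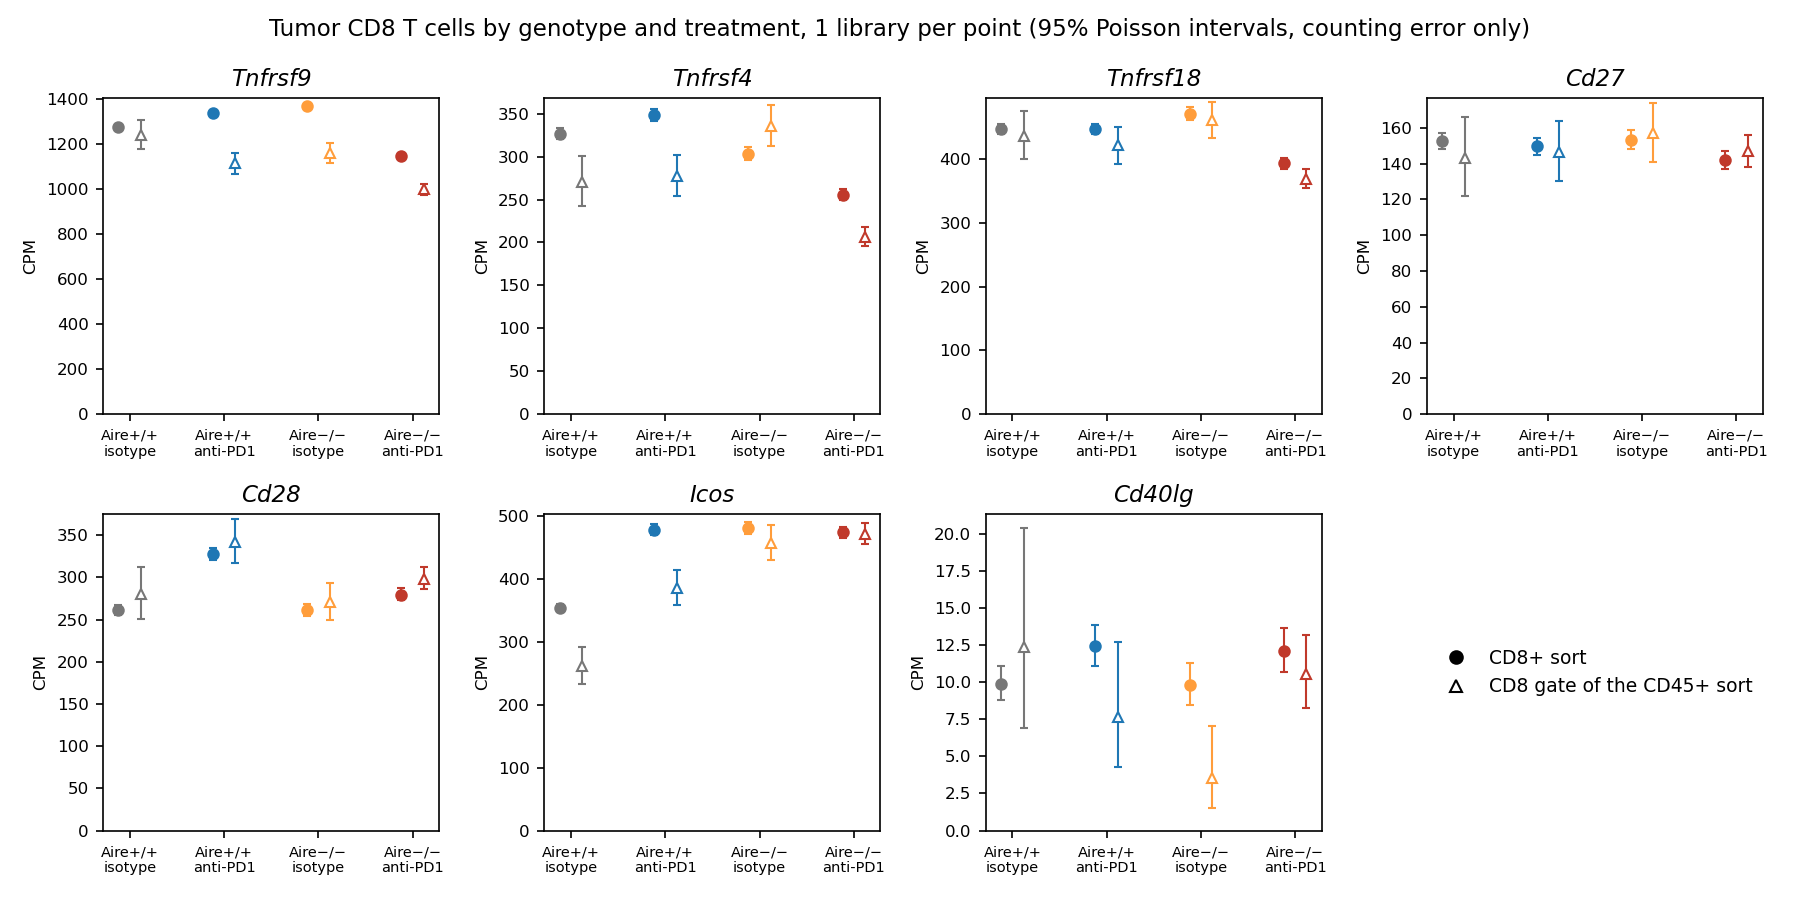
Level of each member in tumor CD8 T cells of the CD8+ sort and of the CD45+ sort in CPM, with 1 point per library and exact Poisson 95% intervals. Icos lies lowest in the *Aire*+/+ isotype library of both sorts, at 353 and 261 CPM.

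The receptors were often present together in a cell. After thinning, tumor Foxp3+ T cells held a mean of 4.62 to 4.68 of the 7 transcripts per cell, and 95.9 to 100% of them held at least 3. The means were 3.31 to 3.97 in tumor CD4 Foxp3-negative T cells, 2.33 to 2.68 in tumor CD8 T cells and 1.44 to 1.54 in tumor NK cells, against 2.70 to 3.02, 1.51 to 1.72, 0.706 to 0.867 and 0.571 to 0.771 for Foxp3+, CD4 Foxp3-negative, CD8 T and NK cells of the spleen. Tumor and spleen did not overlap within any gate. In the CD8+ sort 48.0 to 60.3% of tumor and 1.56 to 2.03% of splenic CD8 T cells held at least 3.

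Among tumor CD8 T cells of the CD8+ sort, 2007 of 8243 thinned cells held both Tnfrsf9 and Tnfrsf4, which is 18.4 to 28.5% per library. Tnfrsf4 was seen in 31.3 to 40.5% of cells with Tnfrsf9 and in 9.72 to 15.7% of cells without it, and Tnfrsf18 in 66.2 to 70.2% of cells with Tnfrsf4 and in 40.1 to 46.6% of those without. Cd28 went the other way, at 38.7 to 46.7% of cells with Tnfrsf9 and 43.6 to 54.6% of cells without, ranges that overlap. In tumor Foxp3+ T cells 277 of 306 cells held both Tnfrsf9 and Tnfrsf4, 85.9 to 92.4% per library, against 16.0 to 23.3% in splenic ones. In the tumor CD4 Foxp3-negative gate Cd40lg was seen in 5.88 to 14.3% of cells with Tnfrsf9 and in 16.7 to 57.1% of cells without. That gate held only 17, 35, 26 and 29 cells per library, so both shares rest on few cells. Shares of this kind count captured molecules, and a cell without a UMI may hold the transcript.

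Over the 32 sums of 4 gates in 8 CD45+ libraries, the genes whose levels ran most alike with each member among 5529 others were found by Pearson correlation of log2 CPM. The sums of a library share its cells' free RNA and depth, so r is a description. Dusp1 (r = 0.953) and Tpi1 were among the genes that ran most alike with Tnfrsf9, and Tnfrsf4 ran with Rora (0.970), Sdcbp2 (0.966) and Mif4gd (0.943). Tnfrsf18 ran with Tigit (0.967), Samsn1 (0.962) and Glrx (0.951), and Cd27 with Sntb1 (0.918), 4632428N05Rik (0.885) and Slc43a2 (0.879). Tigit is an inhibitory receptor of activated T cells and NK cells, and Dusp1 encodes a phosphatase that acts on MAP kinases. Cd28 ran with Ifi27l2a (0.942), Slfn5 (0.912) and Slamf1 (0.898). Icos ran with Rora (0.967), Glrx (0.962) and the inhibitory Cd28 relative Ctla4 (0.961), and Cd40lg with Tbc1d4 (0.851), Tmem64 (0.813) and Fyb (0.809). Among the members, Tnfrsf4 and Icos ran most alike (0.957), followed by Cd28 and Icos (0.913), Tnfrsf18 and Icos (0.890), Tnfrsf4 and Cd28 (0.883) and Tnfrsf9 and Tnfrsf18 (0.882), while Tnfrsf9 had r of -0.157 with Cd27 and -0.052 with Cd40lg.

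A list of 11 other costimulatory receptors moved in both directions. In CD8 T cells of the CD8+ sort 10 were tested, 5 were higher in tumor, 4 lower and 1 not called, with a median of 0.24 on the log2 scale, beside 77.7% of all genes called. Tnfrsf1b, a TNF receptor that costimulates activated T cells, rose by 2.79 ± 0.11 (adjusted p = 3.65e-07), and Klrk1, the activating receptor NKG2D, rose by 3.85 ± 0.32 (adjusted p = 1.80e-05). Slamf6, a receptor of stem-like and naive T cells, fell by 3.02 ± 0.09 (adjusted p = 1.20e-07). Tnfrsf1b stood at 98.3 to 171 CPM in tumor and 16.9 to 28.2 CPM in splenic CD8 T cells of the CD45+ sort, and Slamf6 at 16.5 to 21.0 and 100 to 123 CPM. In the CD45+ sort 4 of 7 tested were higher and 2 lower in CD8 T cells, 3 of 6 higher and 1 lower in CD4 Foxp3-negative T cells, 3 of 6 higher and 2 lower in Foxp3+ T cells, and 1 of 5 higher and 2 lower in NK cells. Of all tested genes 57.0, 24.4, 34.1 and 41.3% were called in these fits. In NK cells Tnfrsf1b was at 0.40 and not called (adjusted p = 0.17), and Klrk1 fell by 0.72.

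Of 22 signaling genes that act below these receptors, 11 were higher, 6 lower and 5 not called in CD8 T cells of the CD8+ sort, with a median of 0.18. That is 77.3% of the list called, close to the 77.7% of all tested genes, so the list does not stand out in this fit. Higher in tumor were Nfkb2, a subunit of the alternative NF-kappaB pathway, by 2.13 ± 0.11 (adjusted p = 1.64e-06), Rel by 1.88 ± 0.12 (adjusted p = 4.87e-06), the NF-kappaB target and inhibitor Nfkbia by 1.67 ± 0.10 (adjusted p = 2.55e-06) and the adaptor Traf1 by 1.24 ± 0.07 (adjusted p = 1.86e-06). Prkcq, the kinase that links the antigen receptor and Cd28 to NF-kappaB, fell by 0.91 ± 0.05 (adjusted p = 2.03e-06). These genes moved the same way in the 4 gates of the CD45+ sort and were called in each. Rel rose by 1.92, 1.96, 1.12 and 1.75 in CD8, CD4 Foxp3-negative, Foxp3+ T and NK cells, and Nfkbia by 1.60, 3.22, 1.35 and 1.96. Traf5 was at -0.91, -1.07, -1.49 and -1.55. Over the whole list 10, 7, 5 and 9 genes were higher, 5, 3, 4 and 3 lower and 7, 11, 11 and 10 not called. The called shares of the list were 68.2, 47.6, 45.0 and 54.5%, beside 57.0, 24.4, 34.1 and 41.3% of all genes.

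The 8 partner genes were near 0 in splenic CD8 T cells of the CD45+ sort, apart from Cd86, so most that passed the filter did so through their tumor counts and a count of how many were higher says little. Tnfsf9, the ligand of Tnfrsf9, had 285 UMIs in tumor and 6 in splenic CD8 T cells of that sort, and Cd86 stood at 37.0 to 46.0 CPM in tumor and at 10.7 to 15.5 CPM in splenic ones. Tnfsf4, the ligand of Tnfrsf4, stood at 39.5 CPM on average in tumor NK cells (344 UMIs, 22.2 to 51.9 CPM per library) against 1 UMI in splenic NK cells. Tumor myeloid cells, the main antigen-presenting gate there with 5329 cells, held Cd86 at 139 to 183 CPM, Cd40 at 113 to 191, Tnfsf9 at 70.7 to 120, Cd80 at 31.1 to 43.8 and Icosl at 19.3 to 21.5. The ligand of Tnfrsf18, Tnfsf18, was nearly absent there with 6 UMIs. Splenic B cells held Icosl at 113 to 131 CPM and Cd40 at 121 to 140 CPM.

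Several members lie close together in the mouse genome (GRCm38). Tnfrsf4 (chr4:156013595-156016613, plus strand) and Tnfrsf18 (chr4:156026322-156028894, plus strand) are neighbours separated by 9708 bases, and Tnfrsf9 (chr4:150920155-150946104, plus strand) lies 5067490 bases before Tnfrsf4 on the same chromosome. Cd28 (chr1:60746388-60773359, plus strand) and Icos (chr1:60960773-61000322, plus strand) are separated by 187413 bases. Cd27 lies at chr6:125232620-125237136 on the minus strand and Cd40lg at chrX:57212143-57224042 on the plus strand.

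Promoter windows from RefSeq (build GRCm38.p6, 250 bases before to 50 bases from the start of a transcript) matched 4 of the members, Tnfrsf9 with 2 windows and Tnfrsf4, Tnfrsf18 and Cd27 with 1 each, while Cd28, Icos and Cd40lg were not matched. They are shown because Tnfrsf9, Tnfrsf4 and Tnfrsf18 rose together in the tumor while Cd27 fell. Each window was searched on both strands for AP-1 (TGANTCA, in 7.81% of all 32851 windows), NF-kappaB (GGGANTTTC, in 1.11%), NFAT (TGGAAA, in 21.4%) and forkhead (GTAAACA, in 3.65%) letters. A wider NF-kappaB consensus (GGGRNWYYCC, in 4.51%) was added after the windows had been seen, and capitals mark the matches. The first Tnfrsf9 window (chr4:150919905-150920204, plus strand) and the Tnfrsf4 window (chr4:156013445-156013744, plus strand, match on the other strand) each held the NFAT letters. The second Tnfrsf9 window (chr4:150927749-150928048, plus strand) held the AP-1 letters and overlapping matches of the NF-kappaB consensus (GGGGATTTCC and GGGATTTCCC), and the Tnfrsf18 (chr4:156026072-156026371, plus strand) and Cd27 (chr6:125236978-125237277, minus strand) windows held none of the 5. A match describes the letters and is not a binding site.
Tnfrsf9 window 1: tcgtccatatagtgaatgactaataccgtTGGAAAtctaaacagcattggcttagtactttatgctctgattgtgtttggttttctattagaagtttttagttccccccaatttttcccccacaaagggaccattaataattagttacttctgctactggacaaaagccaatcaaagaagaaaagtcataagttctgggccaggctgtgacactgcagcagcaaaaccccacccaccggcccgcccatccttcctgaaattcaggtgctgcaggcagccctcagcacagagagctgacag
Tnfrsf9 window 2: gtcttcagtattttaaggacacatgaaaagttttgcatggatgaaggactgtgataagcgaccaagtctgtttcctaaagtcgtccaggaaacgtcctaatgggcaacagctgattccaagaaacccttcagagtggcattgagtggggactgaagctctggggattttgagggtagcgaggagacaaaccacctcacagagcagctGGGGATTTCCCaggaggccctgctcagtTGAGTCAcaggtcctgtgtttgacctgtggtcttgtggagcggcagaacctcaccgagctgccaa
Tnfrsf4: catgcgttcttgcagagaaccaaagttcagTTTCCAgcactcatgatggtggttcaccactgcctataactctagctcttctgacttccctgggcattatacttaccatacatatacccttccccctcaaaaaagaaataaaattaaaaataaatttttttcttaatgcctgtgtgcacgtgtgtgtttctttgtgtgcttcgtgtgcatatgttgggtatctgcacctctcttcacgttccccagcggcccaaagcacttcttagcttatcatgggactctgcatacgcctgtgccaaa
Tnfrsf18: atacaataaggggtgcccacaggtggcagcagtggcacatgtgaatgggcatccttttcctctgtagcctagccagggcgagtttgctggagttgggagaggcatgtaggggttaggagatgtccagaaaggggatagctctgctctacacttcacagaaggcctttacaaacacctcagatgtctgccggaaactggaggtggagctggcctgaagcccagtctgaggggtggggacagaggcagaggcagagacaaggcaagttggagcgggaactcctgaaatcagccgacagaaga
Cd27: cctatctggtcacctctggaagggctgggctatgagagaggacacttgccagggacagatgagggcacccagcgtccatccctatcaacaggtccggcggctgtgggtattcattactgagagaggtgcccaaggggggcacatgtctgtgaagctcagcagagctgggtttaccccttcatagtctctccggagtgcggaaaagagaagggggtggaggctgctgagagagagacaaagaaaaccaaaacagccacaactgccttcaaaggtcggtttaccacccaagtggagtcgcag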

How the data were processed

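The tables deposited by the authors hold UMI counts per gene and cell barcode, mapped to GRCm38 per the labels. The labels name a 3′ kit and Cell Ranger without a version. For sorted CD45+ or CD8+ cells also sequenced for T cell receptors, the authors describe a 5′ kit, Cell Ranger 2.2.0 and a RefSeq gene model, and which kit the libraries of either sort used is not settled here. Rows of the same symbol were summed, and 27 vector or transgene rows with 65 UMIs (1.9e-05% of all UMIs) were left out. Cells needed at least 200 genes and at most 20% mitochondrial UMIs, which removed 156 of 37609. No doublet caller was run. The gate exclusions remove cells with over 0.1% of B or myeloid UMIs and those with conflicting lineage markers, and cannot find doublets within a gate.

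T cells needed at least 1 UMI of Cd3d and Cd3e, at least 2 of Cd3d, Cd3e and Cd3g, and at most 1 of Ncr1 and Klrb1c. CD8 T cells needed at least 1 Cd8b1 and 2 Cd8a and Cd8b1 UMIs with 0 of Cd4 and Foxp3, CD4 Foxp3-negative T cells at least 1 Cd4 UMI with 0 of Cd8a, Cd8b1 and Foxp3, and Foxp3+ T cells at least 1 Foxp3 UMI with 0 of Cd8b1. NK cells needed at least 2 UMIs of Ncr1 and Klrb1c, at most 1 of Cd3d and Cd3e and 0 of Cd8b1. The B and myeloid background gates held over 0.1% of UMIs in their own list, at most 0.1% in the other and 0 Cd3 UMIs.

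UMI counts were summed per library and gate and fitted in 17 comparisons with edgeR 4.0.16 (R 4.3.3; TMM, filterByExpr, quasi-likelihood F-test, Benjamini-Hochberg over all tested genes, calls at adjusted p under 0.05), with condition or library as a block. The SE is the log2 fold change divided by the square root of F. DESeq2 1.42.0 served as an alternative, and shares, intervals, likeness and figures came from Python 3.11.15 (numpy 2.4.6, scipy 1.17.1, pandas 2.3.3, matplotlib 3.10.9). Likeness used log2(CPM + 10) over genes with a mean of at least 20 CPM, with gate genes and members left out. A member at 0 has a floor of 3 counts, and the 1.5-fold background used genes whose UMIs in both libraries of a contrast summed to 10 or more.

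Genes are named if they are members, belong to the lists of other costimulatory receptors, partner genes, signaling genes or cell type markers, or are among the 3 genes most like a member. The members and lists were chosen with earlier results of these data known. Of the alternatives 35 were planned, and 5 were chosen after seeing the data, 4 for the Ccl5 contrast (size factors, DESeq2, no filter, leaving out each condition) and 1 for the NF-kappaB letters.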

Additional observations from a re-analysis of the deposited data

Results flagged for a closer look

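Among 62 groups of 4 libraries of a tissue, sort and gate, 5 held a library whose member level lay far from the other 3, measured by its gap to the nearest relative to the range of the group. Chance alone gives about 1 in 20 groups. These were Tnfrsf9 at 867 CPM in CD4 Foxp3-negative T cells and Tnfrsf4 at 3105 CPM in Foxp3+ T cells of the *Aire*-/- anti-PD1 CD45+ tumor library, both the lowest of their group. Icos at 353 CPM in CD8 T cells of the *Aire*+/+ isotype CD8+ tumor library, Cd27 at 164 CPM in CD4 Foxp3-negative T cells of the *Aire*+/+ isotype CD45+ spleen library, and Tnfrsf18 at 46.3 CPM in CD8 T cells of the *Aire*-/- isotype CD8+ spleen library were also the lowest of theirs. The libraries of a group differ in genotype or treatment.

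For 9 combinations of member and gate the interaction test of edgeR called the difference between tumor and spleen unlike that of CD8 T cells. The log2 difference in Foxp3+ T cells minus that in CD8 T cells was -2.80 for Tnfrsf9, -6.05 for Tnfrsf4, -1.06 for Tnfrsf18, -1.15 for Icos and -4.22 for Cd40lg. In CD4 Foxp3-negative T cells it was -4.34 for Tnfrsf4, and in NK cells -2.17 for Tnfrsf9, -9.08 for Tnfrsf4 and -1.93 for Tnfrsf18. The values of Tnfrsf4 and Cd40lg depend on the prior count, since both were near 0 in splenic CD8 T cells of the CD45+ sort. Their combinations are counted in the 9, but the sizes of those differences are not measured. Tnfrsf4 was near 0 in NK cells as well, and its interaction there was no longer called without the *Aire*+/+ isotype libraries.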

How the results depend on the processing

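Each comparison has 4 libraries on a side that differ in genotype and treatment, so the fits measure how steady a difference is over conditions and not over mice. The gates rest on captured UMIs, and cells whose Foxp3 or Cd4 was not captured are misplaced or left out. Spleen cells held fewer UMIs than tumor cells, and genes near 0 in a gate have fold changes that depend on the prior count. Part of the myeloid and B cell traces may be free RNA, and its share was not tested. Over 1376 values of members under an alternative, 1286 kept their call and direction, 54 lost the call, 17 gained it and 19 turned direction. RLE size factors, no replicate block, a Cd3 sum of at least 1, a mitochondrial share of at most 10%, leaving out shared barcodes, at least 2 Foxp3 UMIs, the other NK gate and at least 5 Ccl5 UMIs turned no direction.

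Thinning to 2000 UMIs left fewer genes to test. Between tumor and spleen, 1513 genes were called against 4331 in CD8 T cells of the CD45+ sort, 400 against 987 in CD4 Foxp3-negative, 469 against 1460 in Foxp3+ T cells and 718 against 3012 in NK cells. Within the tumor the counts were 767 against 2131 for Foxp3+ against CD8, 44 against 343 for Foxp3+ against CD4 Foxp3-negative, 191 against 624 for CD4 Foxp3-negative against CD8 T cells and 720 against 2705 for NK against CD8 T cells. Within the spleen the same contrasts had 477 against 1221, 218 against 559, 362 against 896 and 1006 against 2227. DESeq2 called 593 genes in CD4 Foxp3-negative T cells, 838 in Foxp3+ T cells and 1984 in NK cells between the tissues. It called 1594 for tumor NK against CD8 T cells, 672, 249, 407 and 1285 for the splenic contrasts, and 1697 against 2955 for the Ccl5 contrast, the last an alternative chosen after seeing the data. In CD4 Foxp3-negative T cells 532 of 987 called genes were higher in tumor with edgeR and 401 of 593 with DESeq2. The cause was not tested.

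The contrasts with the small CD4 Foxp3-negative tumor gate also moved with the filter, the exclusion and the conditions used. For Foxp3+ against CD4 Foxp3-negative T cells the number of called genes went from 343 to 633 without the filter, to 645 without Il2ra or Ikzf2 UMIs and to 49 without the exclusion of B or myeloid UMIs. Of the 5 members called, 2 remained with thinned cells and 1 without that exclusion. Leaving out each condition gave 203 to 430 genes and 3 to 6 members. For CD4 Foxp3-negative against CD8 T cells the number went from 624 to 956 without the filter, and leaving out each condition gave 220 to 564, with 3 of 5 members called without the exclusion. Between tumor and spleen the fit without Il2ra or Ikzf2 UMIs called 548 genes, against 987. Leaving out each condition gave 337 to 553 genes for splenic Foxp3+ against CD4 Foxp3-negative T cells, 583 to 852 for splenic CD4 Foxp3-negative against CD8 T cells and 185 to 359 against 406 for their interaction with tissue. For genotype and treatment, 0 pairs of member and contrast passed 1.5-fold in the CD8+ sort, 5 in the CD45+ sort and 2 with thinned cells.

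The values that turned direction were not called in the reported fits. Between the tissues, Cd40lg went from 0.40 to -0.44 with thinned CD4 Foxp3-negative T cells, and Cd27 in NK cells from -0.23 to 0.11 with thinned cells and 0.01 without the deepest. For tumor CD4 Foxp3-negative against CD8 T cells, Tnfrsf9 went from 0.10 to -0.03 without the filter, -0.22 without the exclusion and -1.50 without Il2ra or Ikzf2 UMIs, and Cd27 from -0.15 to 0.29 with thinned cells and -0.44 to 0.06 over the conditions left out. For tumor NK against CD8 T cells, Tnfrsf9 at 0.01 was -0.05 with thinned cells, -0.07 without the deepest and -0.05 to 0.08 over the conditions left out. Splenic CD4 Foxp3-negative against CD8 T cells had Tnfrsf9 at 0.58, or -0.09 without Il2ra or Ikzf2 UMIs. Over the conditions left out, the interaction of Cd27 in CD4 Foxp3-negative T cells (0.17) ran from -0.07 to 0.47 and that of Cd28 in NK cells (-0.20) from -0.49 to 0.09. In the Ccl5 contrast Tnfrsf18 (0.03) was -0.01 without the filter and -0.04 to 0.06 over the conditions left out, and Tnfrsf4 (0.87) ran from -0.27 to 1.24.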
